A study of Rattus norvegicus with 372 samples.

Results

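Aldehyde dehydrogenases were followed in primary rat hepatocytes exposed to drugs. The set holds 10 genes of the family that the liver is known to use, Aldh1a1, Aldh1a7, Aldh1b1, Aldh2, Aldh3a2, Aldh4a1, Aldh6a1, Aldh7a1, Aldh8a1 and Aldh9a1, and its members were found by matching gene symbols in the probe names of the count tables. Among 20946 gene symbols of the whole-transcriptome (WT) TempO-Seq assay, 8 members had a column, each with a single probe, and 5 were among the 2604 symbols of the smaller S1500+ surrogate (ST) assay. Aldh4a1 was named in the ST assay only, and Aldh1a7 was not analysed here. TempO-Seq counts pairs of short detector oligonucleotides that are ligated on their target RNA in a cell lysate, so a value is a read count of a probe and carries no information on other parts of the transcript.

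Hepatocytes of untreated male Wistar rats (age not given in the sources used here) were held between layers of collagen and treated for 24 h with 14 chemicals, each at a high and a low concentration, in medium with 0.5% DMSO. The high concentrations were acetaminophen, caffeine, isoniazid and valproic acid at 10000 µM, ranitidine at 4000 µM, naproxen at 2000 µM, chloramphenicol at 450 µM, diclofenac at 400 µM, indomethacin at 300 µM, WY14643 at 200 µM, sulfasalazine at 100 µM, simvastatin at 60 µM, ketoconazole at 15 µM and doxorubicin at 2 µM, and each low concentration was 25 times lower. Each batch was 1 rat, 2 batches were run, and every treatment had 3 wells per batch, beside 3 vehicle (DMSO) and 3 culture medium wells in batch 1 and 6 of each in batch 2. Wells of a batch share the rat, so p-values over wells measure the spread between wells and only in part the spread between animals.

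An aldehyde dehydrogenase oxidises an aldehyde to its carboxylic acid with NAD+ or NADP+ as the acceptor of electrons, and the liver is rich in these enzymes. The members divide the work by substrate and compartment. Aldh1a1 turns retinal into retinoic acid in the cytosol, Aldh2 and Aldh1b1 remove acetaldehyde in mitochondria, and Aldh3a2 handles long-chain fatty aldehydes at the endoplasmic reticulum. The others finish steps of amino acid and carnitine metabolism: Aldh4a1 in proline, Aldh6a1 in valine, Aldh7a1 in lysine and Aldh8a1 in tryptophan breakdown, and Aldh9a1 in carnitine synthesis.

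The WT libraries held 2289425 to 8975207 counts per well and the ST libraries 558190 to 2210264. Summed CPM (the count of a gene per 1000000 counts of its well) of 8 hepatocyte markers lay between 37054 and 44237 in vehicle wells, between 27406 and 52693 in low-concentration wells and between 6945 and 44901 in high-concentration wells. The summed level of 5 endothelial markers stayed at or below 6.32 CPM in every well and that of 6 Kupffer cell and leukocyte markers at or below 80.6 CPM. Stellate markers, 5 of 6 with a column, summed to 34.4 to 166 CPM in vehicle wells, 17.2 to 206 in low-concentration wells and 3.22 to 175 in high-concentration wells, with Col1a1 and Des at a median of 0. The 5 biliary markers summed to 37.7 to 50.6 CPM in vehicle, 23.9 to 59.8 in low-concentration and 6.81 to 77.2 in high-concentration wells. Krt7 had a median of 0 in each, and Krt19 in high-concentration wells. In lysates of a whole well, fewer cells of a type and less RNA per cell cannot be told apart.

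Members that had a mean of at least 10 counts per well entered a fit across all 10191 genes that passed this filter, which left 7 members, since Aldh1b1 fell below it. Over 7 members and 14 high concentrations there were 98 member-treatment pairs, of which 46 were lower than vehicle and 20 higher at an adjusted p under 0.05 (edgeR's quasi-likelihood test with Benjamini-Hochberg adjustment). Of all gene-treatment pairs at these concentrations, 25.5% were lower and 25.4% higher. Over the 98 pairs at low concentrations 17 were higher and 3 lower, against 4.91% and 4.5% of all gene-treatment pairs. The median log2 fold change of the members was -0.23 at high and 0.11 at low concentrations, beside 0.00251 and 0.00113 over all genes. All 66 pairs called at high and all 20 called at low concentrations had the same sign in both batches, and 47 and 7 of them were also called with the wells summed per rat, the fit in which the 2 animals are the replicates.

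**Figure D1:**
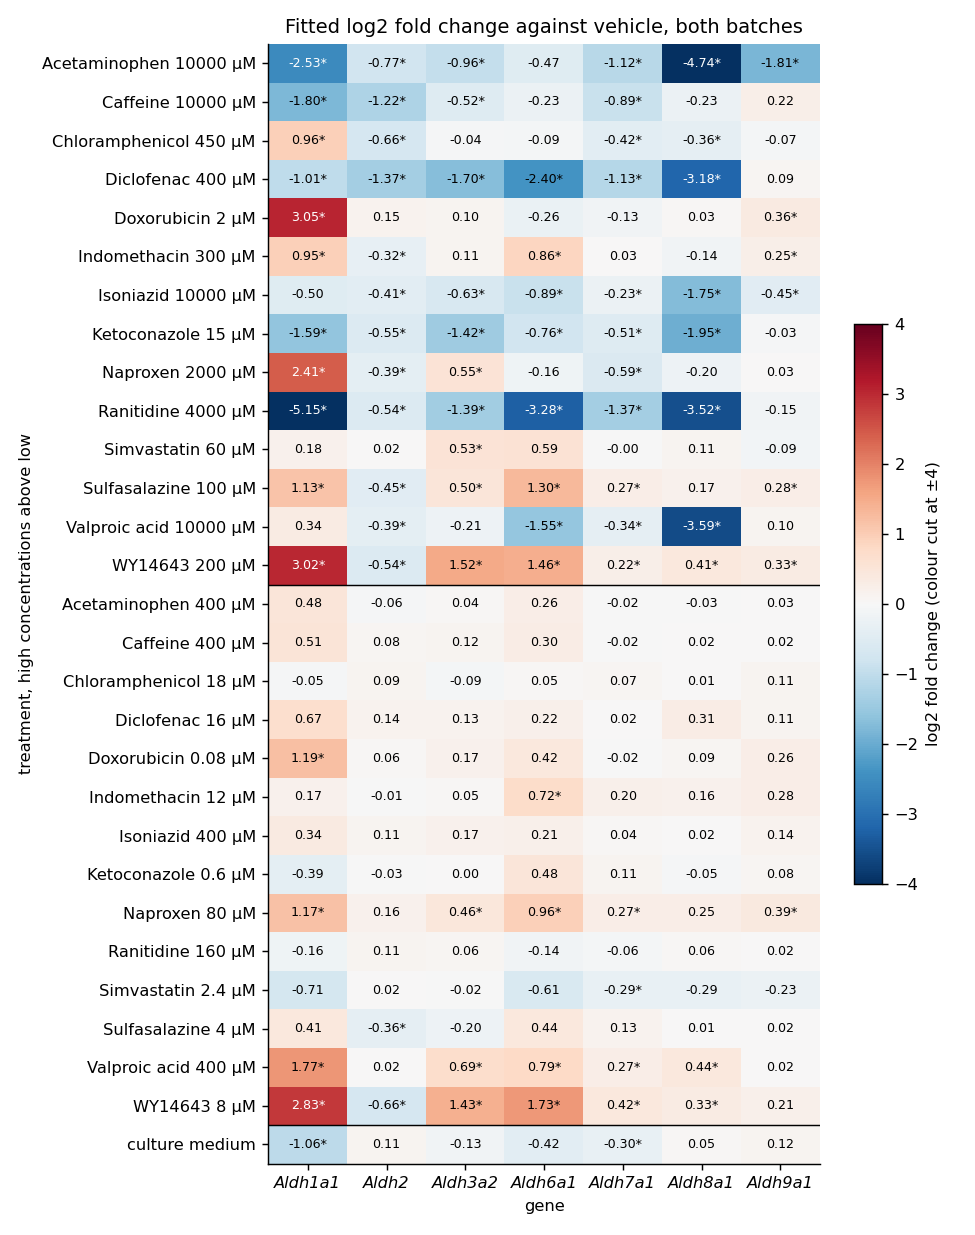
Fitted log2 fold change of the 7 tested members (columns) against vehicle in 28 treatments and culture medium (rows), with both batches in the fit. Stars mark an adjusted p under 0.05, and colour runs from blue (lower) to red (higher) and is cut at 4 in either direction. The column of Aldh1a1 runs from -5.15 to 3.05, and the column of Aldh2 has no starred value above 0.

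The members differed in how far they moved. Between the lowest and the highest condition mean, Aldh1a1 spanned 169-fold in batch 1 and 730-fold in batch 2 on the CPM scale, Aldh8a1 57.2-fold and 40.8-fold, and Aldh6a1 31.6-fold and 26.2-fold. The spans were narrower for Aldh3a2, at 7.90-fold and 7.44-fold, and for Aldh9a1, at 7.14-fold and 5.55-fold. Aldh7a1 spanned 3.74-fold and 3.31-fold, and Aldh2 3.08-fold and 2.79-fold. Fitted fold changes are scaled by trimmed mean of M-values (TMM) factors and so are relative to the bulk of all genes. Scaling by total counts instead moved the median of all genes by over 0.1 on the log2 scale in 10 of 29 comparisons, from -0.41 with acetaminophen at 10000 µM to 0.27 with valproic acid at 10000 µM, with -0.28 and -0.23 for WY14643 at 8 and 200 µM, and this touches the small member changes most.

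Aldh1a1, the cytosolic retinal dehydrogenase, was raised by WY14643, doxorubicin, naproxen and the low concentration of valproic acid. Vehicle wells held 117, 70.3 and 124 CPM in batch 1 and between 34.1 and 79.6 (median 48.6) CPM in batch 2, so the vehicle wells themselves spread widely. With WY14643 at 200 µM, an agonist of the fatty acid receptor PPARα, the wells held 605, 556 and 344 CPM in batch 1 and 348, 479 and 552 in batch 2. Every one of these 6 wells lay above every vehicle well, and the fitted level was 8.11-fold that of vehicle (log2 fold change 3.02 ± 0.32 (SE), adjusted p = 9.27e-16). At 8 µM the wells held 344, 349 and 364 CPM in batch 1 and 386, 609 and 358 in batch 2. The groups were again apart in both batches, at 7.11-fold (log2 fold change 2.83 ± 0.32 (SE), adjusted p = 2.46e-14).

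Doxorubicin, an anthracycline that intercalates into DNA, raised Aldh1a1 at 2 µM by 8.29-fold (log2 fold change 3.05 ± 0.32 (SE), adjusted p = 4.99e-15), with 379, 418 and 386 CPM in batch 1 and 1070.4, 481 and 642 in batch 2. All 6 wells were above the vehicle wells, and the well at 1070.4 CPM was the highest of the assay for Aldh1a1. Of the 7 tested members only Aldh9a1 was also called with doxorubicin at 2 µM (log2 fold change 0.36 ± 0.11 (SE), adjusted p = 0.0102). Thus 2 of 7 members were higher and none lower, beside 9.07% of all genes higher and 10.3% lower. Aldh9a1 lost its call with the wells summed per rat (adjusted p = 0.37). In the same wells the summed stellate markers had a median of 7.33 CPM against 50.01 CPM in vehicle and the Kupffer cell and leukocyte markers 5.80 against 34.9 CPM. Endothelial markers had 0.166 against 2.70 CPM and hepatocyte markers 28917 against 41755. The part of these cells in the Aldh1a1 result was not tested. At 0.08 µM the wells held 121, 107 and 137 CPM in batch 1, of which 1 was above the vehicle wells, and 139, 310.2 and 140.2 in batch 2, all above them. The call at 0.08 µM (adjusted p = 0.027) was lost with plate as the term (adjusted p = 0.122) and with the wells summed per rat (adjusted p = 1).

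Naproxen at 2000 µM gave 370.4, 366 and 493 CPM of Aldh1a1 in batch 1 and 290.4, 175 and 545 in batch 2, and valproic acid at 400 µM gave 305, 199 and 345 in batch 1 and 196, 227 and 158 in batch 2. Both treatments cleared the vehicle wells in each batch. The fitted changes were 5.32-fold (log2 fold change 2.41 ± 0.32 (SE), adjusted p = 2.68e-11) and 3.42-fold (log2 fold change 1.77 ± 0.32 (SE), adjusted p = 1.59e-06), and both were also called with the wells summed per rat. Smaller rises of 1.94-fold, 1.93-fold and 2.19-fold with chloramphenicol at 450 µM, indomethacin at 300 µM and sulfasalazine at 100 µM passed the test over wells (adjusted p = 0.0132, 0.00755 and 0.0022) but not with wells summed per rat (adjusted p = 0.324, 0.201 and 0.174). Aldh1a1 has a close paralog in the rat, Aldh1a7, and counts of a single probe are uncertain where the paralogs share sequence.

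Aldh1a1 nearly vanished with ranitidine, an acid blocker of the histamine H2 receptor. At 4000 µM the wells held 2.40, 2.66 and 3.85 CPM in batch 1 and 1.11, 1.32 and 0.573 in batch 2, far below each vehicle well. The fitted level was 35.6-fold lower (log2 fold change -5.15 ± 0.49 (SE), adjusted p = 6.24e-19), the largest fall of any tested member in the 28 treatments. Acetaminophen at 10000 µM left 7.42, 9.38 and 8.05 CPM in batch 1 and 4.81, 8.76 and 13.5 in batch 2, 5.79-fold lower (log2 fold change -2.53 ± 0.39 (SE), adjusted p = 2.8e-09). Caffeine at 10000 µM and ketoconazole at 15 µM lowered it 3.49-fold and 3.00-fold (adjusted p = 5.3e-06 and 6.31e-05), with no well of either treatment inside the vehicle range of its batch. Diclofenac at 400 µM was less even, with 17.8, 175 and 26.8 CPM in batch 1 and 7.02, 14.6 and 10.9 in batch 2. Replicate 2 of batch 1 stood apart there: the fitted change was -1.01 (adjusted p = 0.00575) with it, and -2.39 (adjusted p = 2.21e-08) when replicate 2 was left out of every group. Leaving out replicate 1 or replicate 3 instead gave -0.50 and -0.72, which did not pass (adjusted p = 0.294 and 0.115). Hepatocyte markers had a median sum of 8110 CPM with diclofenac and 13313 CPM with ranitidine, against 41755 CPM in vehicle, and its part in these falls was not tested.

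**Figure D2:**
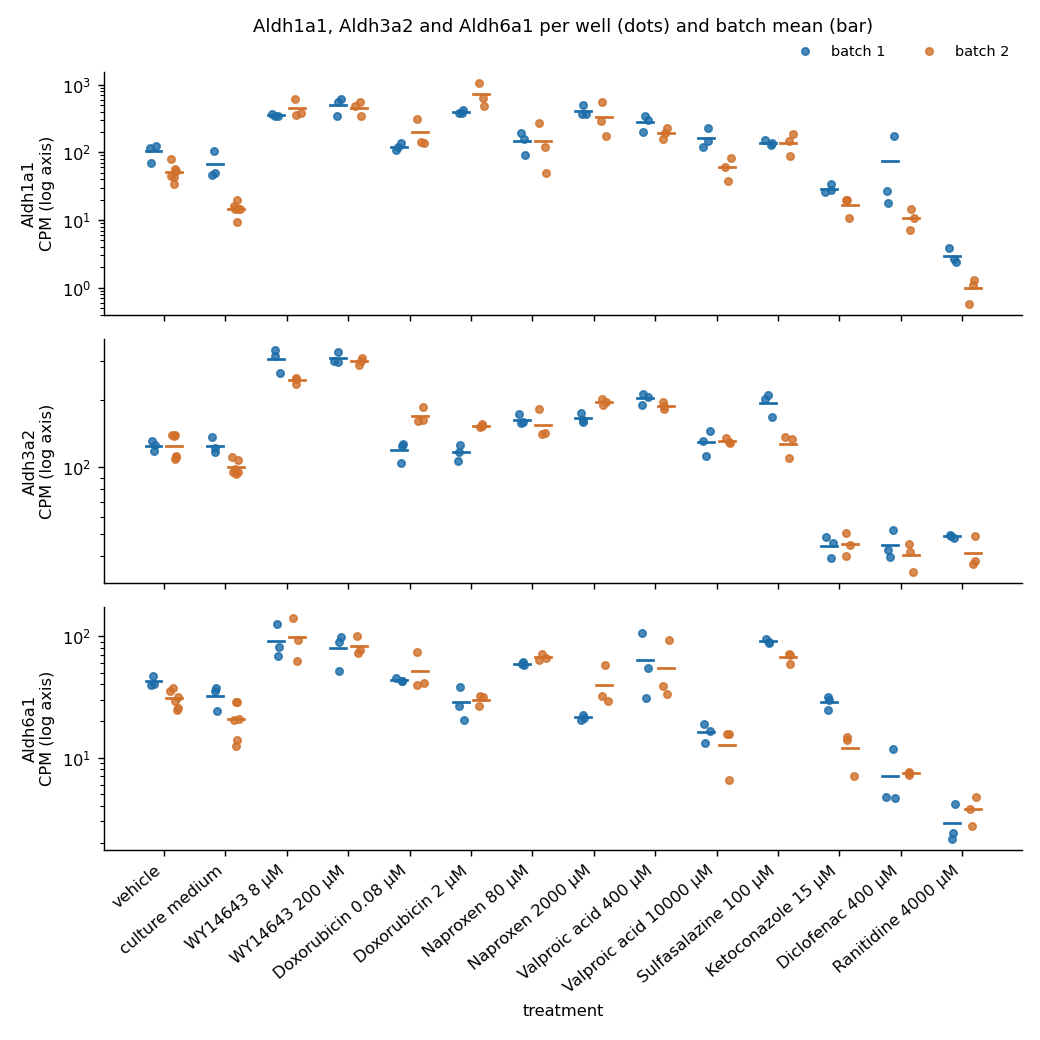
CPM of Aldh1a1, Aldh3a2 and Aldh6a1 (log axes) in single wells of vehicle, culture medium and 12 treatments, with batch 1 in blue and batch 2 in orange. Dots are wells and short bars the mean of a batch. For Aldh1a1 the WY14643 wells lie above and the ranitidine wells below every vehicle well, while the naproxen wells at 80 µM overlap vehicle.

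Culture medium without a chemical also differed from vehicle in Aldh1a1. Medium wells held 45.9, 105 and 49.9 CPM in batch 1 and between 9.48 and 19.8 (median 14.4) CPM in batch 2, all below the vehicle wells in batch 2 and 2 of 3 below them in batch 1. The fitted change was -1.06 ± 0.30 (SE), adjusted p = 0.00918, and neither batch 1 alone nor the wells summed per rat called it (adjusted p = 0.667 and 0.642). Aldh7a1 was the other of 2 members lower in medium (log2 fold change -0.30 ± 0.063 (SE), adjusted p = 0.000122), where 5.1% of all genes were called lower. Its medium wells, 370.0, 391 and 378 CPM in batch 1 and between 246 and 334 (median 303) in batch 2, stayed below every vehicle well of their batch, but this call too was lost in batch 1 alone and with the wells summed per rat (adjusted p = 0.628 and 0.334).

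Aldh3a2, the fatty aldehyde dehydrogenase, rose with WY14643 at both concentrations. Vehicle wells held 126, 131 and 119 CPM in batch 1 and between 109 and 140.0 (median 126) CPM in batch 2, where the wells of plate 2 (109 to 113 CPM) were below those of plate 3 (139 to 140.0 CPM). At 200 µM the wells held 296, 301 and 329 CPM in batch 1 and 311, 289.5 and 299 in batch 2, and at 8 µM 336, 317 and 266 in batch 1 and 237, 249.5 and 253 in batch 2. All 12 wells were above all vehicle wells, the plate difference included. The fitted changes were 2.87-fold (log2 fold change 1.52 ± 0.12 (SE), adjusted p = 2.15e-25) and 2.70-fold (log2 fold change 1.43 ± 0.12 (SE), adjusted p = 3.1e-23), and both calls held with plate as the term and with the wells summed per rat. Valproic acid at 400 µM raised it 1.61-fold (adjusted p = 4.87e-07) and naproxen at 2000 µM 1.46-fold (adjusted p = 2.77e-05).

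In the other direction Aldh3a2 fell with 6 of 14 high concentrations. Diclofenac at 400 µM left 39.4, 52.4 and 42.4 CPM in batch 1 and 34.0, 41.6 and 45.3 in batch 2 (3.24-fold lower, adjusted p = 3.79e-26). Ketoconazole at 15 µM, an azole antifungal, left 48.4, 39.2 and 45.7 CPM in batch 1 and 44.8, 39.8 and 50.8 in batch 2 (2.68-fold lower, adjusted p = 3.4e-20). Ranitidine at 4000 µM left 48.1, 49.7 and 49.2 CPM in batch 1 and 49.0, 36.8 and 37.8 in batch 2 (2.63-fold lower, adjusted p = 5.16e-20). The 3 treatments ended at much the same level, under the lowest vehicle well in both batches. In the fit acetaminophen, isoniazid and caffeine at 10000 µM lowered it by less, 1.95-fold, 1.54-fold and 1.43-fold. On the CPM scale acetaminophen left 31.2% of the vehicle mean in batch 1 and 45.8% in batch 2. Its batch 1 mean of 39.1 CPM was the lowest of any condition in that batch.

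Aldh6a1, the methylmalonate semialdehyde dehydrogenase of valine breakdown, shared the WY14643 response. Its vehicle wells held 40.5, 39.9 and 47.3 CPM in batch 1 and between 24.9 and 37.5 (median 30.6) CPM in batch 2. With WY14643 at 8 µM they held 68.5, 125 and 81.6 CPM in batch 1 and 62.2, 142 and 92.7 in batch 2, and at 200 µM 97.4, 88.9 and 51.5 in batch 1 and 72.9, 99.6 and 76.7 in batch 2. None of the 12 wells overlapped the vehicle wells. The fitted rises were 3.33-fold (log2 fold change 1.73 ± 0.23 (SE), adjusted p = 3.26e-11) and 2.74-fold (log2 fold change 1.46 ± 0.23 (SE), adjusted p = 1.6e-08). Sulfasalazine at 100 µM, an anti-inflammatory drug, gave 88.8, 88.3 and 94.9 CPM in batch 1 and 69.7, 71.4 and 59.0 in batch 2. These wells were also above all vehicle wells, at 2.46-fold (adjusted p = 1.16e-06).

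Ranitidine, diclofenac and the high concentration of valproic acid lowered Aldh6a1. Ranitidine at 4000 µM left 2.40, 2.13 and 4.18 CPM in batch 1 and 3.79, 4.79 and 2.75 in batch 2, 9.70-fold lower (log2 fold change -3.28 ± 0.31 (SE), adjusted p = 4.05e-19). Diclofenac at 400 µM left 4.71, 11.8 and 4.63 CPM in batch 1 and 7.16, 7.63 and 7.52 in batch 2, 5.27-fold lower (adjusted p = 6.28e-14). Valproic acid at 10000 µM left 16.6, 18.8 and 13.2 CPM in batch 1 and 6.55, 15.5 and 15.8 in batch 2, 2.93-fold lower (adjusted p = 6.43e-08). No well of the 3 treatments reached the vehicle range. At 400 µM of valproic acid the sign was the opposite (log2 fold change 0.79 ± 0.23 (SE), adjusted p = 0.00527), but the wells, 105, 31.0 and 54.4 CPM in batch 1 and 92.7, 38.8 and 33.1 in batch 2, overlapped vehicle, and without replicate 1 the change was 0.23 and was not called (adjusted p = 0.589).

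With WY14643, 6 of 7 members were higher at 200 µM and 5 of 7 at 8 µM, beside 26% and 28% of all genes. With the wells summed per rat 3 remained at 200 µM (Aldh1a1, Aldh3a2 and Aldh6a1) and 4 at 8 µM (the same and Aldh7a1). Aldh7a1 (0.22 at 200 µM and 0.42 at 8 µM on the log2 scale), Aldh8a1 (0.41 and 0.33) and Aldh9a1 (0.33 at 200 µM) rose by little, and under total-count scaling none of these 5 was called and Aldh7a1 turned to -0.01 at 200 µM. With plate as the term Aldh8a1 was called at neither concentration (adjusted p = 0.103 and 0.226). The 250 bases before the transcript start that RefSeq's promoter table uses (build GRCr8) are given here for the 3 genes that rose most and for Aldh8a1, the member with the deepest fall after Aldh1a1. For Aldh1a1 (gene at 227426939 to 227579497 of chromosome 1) that window lies inside the annotated gene, and for Aldh3a2 (46427789 to 46448449 of chromosome 10, minus strand) it overlaps the gene's end, so other annotated starts of these genes are not covered. PPARα is known to bind repeats of AGGTCA, and none of 8 member promoters listed there held AGGTCA on either strand, while 14.1% of 33469 promoters of the same length did. Capitals mark CCAAT, a common promoter element, on either strand, which 34% of all these promoters held and which occurred 2 times before Aldh1a1, once before Aldh3a2, 3 times before Aldh6a1 and not before Aldh8a1. A match or its absence describes the letters of this window and no more.
Aldh1a1, chr1:227537370-227537619, plus strand: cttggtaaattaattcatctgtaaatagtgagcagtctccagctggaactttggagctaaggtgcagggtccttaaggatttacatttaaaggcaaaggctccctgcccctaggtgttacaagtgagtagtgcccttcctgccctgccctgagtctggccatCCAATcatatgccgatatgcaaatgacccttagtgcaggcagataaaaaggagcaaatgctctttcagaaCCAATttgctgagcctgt
Aldh3a2, chr10:46448336-46448585, minus strand: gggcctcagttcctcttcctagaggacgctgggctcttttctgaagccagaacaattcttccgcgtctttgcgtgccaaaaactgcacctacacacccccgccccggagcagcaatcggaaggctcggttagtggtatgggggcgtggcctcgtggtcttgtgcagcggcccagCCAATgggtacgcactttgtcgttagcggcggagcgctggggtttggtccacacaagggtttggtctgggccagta
Aldh6a1, chr6:109829726-109829975, minus strand: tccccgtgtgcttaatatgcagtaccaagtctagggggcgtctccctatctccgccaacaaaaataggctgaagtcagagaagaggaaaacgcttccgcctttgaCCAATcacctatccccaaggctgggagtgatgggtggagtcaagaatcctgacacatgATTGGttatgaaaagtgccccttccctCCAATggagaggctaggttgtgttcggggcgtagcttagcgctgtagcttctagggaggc
Aldh8a1, chr1:18003257-18003506, plus strand: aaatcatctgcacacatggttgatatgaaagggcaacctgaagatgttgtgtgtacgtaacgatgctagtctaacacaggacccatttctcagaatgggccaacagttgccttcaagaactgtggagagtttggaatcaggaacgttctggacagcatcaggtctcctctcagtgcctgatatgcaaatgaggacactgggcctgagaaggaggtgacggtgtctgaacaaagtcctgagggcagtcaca

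Aldh8a1, the aminomuconate semialdehyde dehydrogenase of the kynurenine pathway, was lowered by 7 of 14 high concentrations and raised by 1. Vehicle wells held 429, 486 and 374 CPM in batch 1 and between 336 and 438 (median 358) CPM in batch 2. Acetaminophen at 10000 µM left 12.9, 8.61 and 8.86 CPM in batch 1 and 14.2, 12.3 and 10.0 in batch 2, the deepest fall of this gene, 26.8-fold lower (log2 fold change -4.74 ± 0.16 (SE), adjusted p = 1.98e-63). Valproic acid at 10000 µM left 43.9, 47.3 and 56.1 CPM in batch 1 and 38.6, 28.4 and 33.7 in batch 2, 12.0-fold lower (adjusted p = 1.85e-52). Both treatments emptied every well to a small part of the vehicle level with little spread among the wells.

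Ranitidine at 4000 µM left 37.4, 40.7 and 52.6 CPM of Aldh8a1 in batch 1 and 29.3, 22.6 and 24.5 in batch 2 (11.4-fold lower, adjusted p = 2.06e-51), and diclofenac at 400 µM left 38.6, 90.8 and 60.9 in batch 1 and 43.2, 35.4 and 35.7 in batch 2 (9.04-fold lower, adjusted p = 8.84e-48). Ketoconazole at 15 µM and isoniazid at 10000 µM gave intermediate falls of 3.86-fold and 3.36-fold (adjusted p = 1.81e-28 and 3.57e-24). In each of these 6 treatments all wells were below the vehicle wells of their batch, and each call held with the wells summed per rat. Chloramphenicol at 450 µM was called as well (-0.36, adjusted p = 0.0191) but not with the wells summed per rat (adjusted p = 0.293). Caffeine at 10000 µM, which lowered Aldh1a1 and Aldh2, left Aldh8a1 at 274, 369.6 and 303 CPM in batch 1 and 220.1, 340.1 and 382 in batch 2 (-0.23 ± 0.13 (SE), adjusted p = 0.0931).

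**Figure D3:**
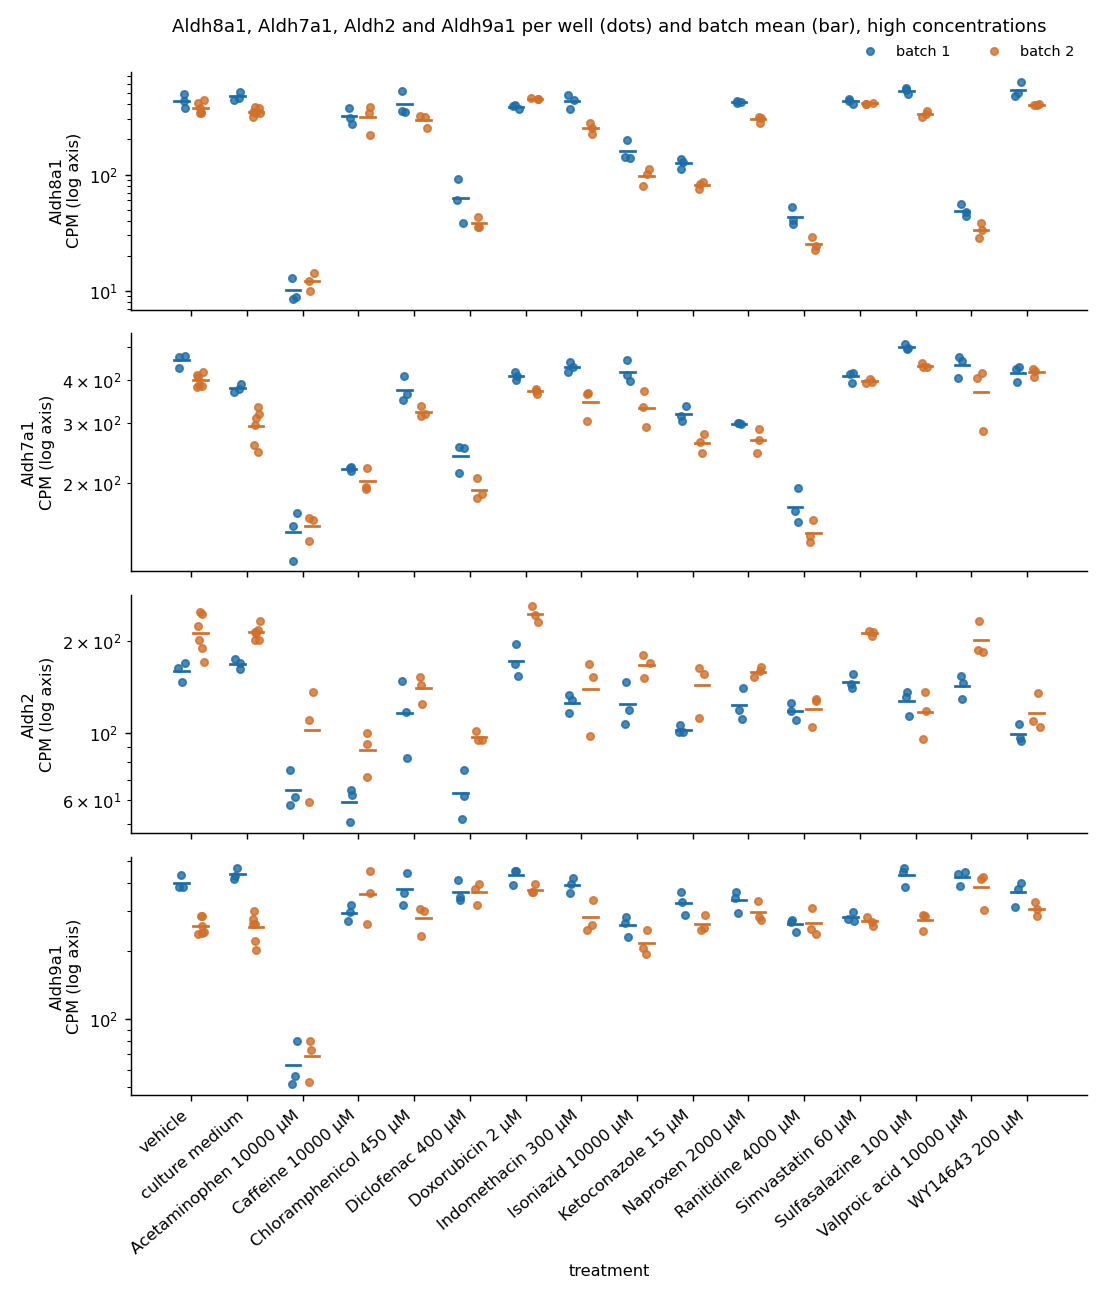
CPM of Aldh8a1, Aldh7a1, Aldh2 and Aldh9a1 (log axes) in single wells of vehicle, culture medium and the 14 high concentrations, with batch 1 in blue and batch 2 in orange. Dots are wells and bars batch means. The acetaminophen wells of Aldh8a1 lie at 14.2 CPM or below and those of Aldh9a1 at 80.4 CPM or below, while most other Aldh9a1 groups stay near their vehicle wells.

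Aldh7a1, the aminoadipic semialdehyde dehydrogenase of lysine breakdown, was lowered by 9 of 14 high concentrations. Its vehicle wells held 471, 469.5 and 435 CPM in batch 1 and between 381 and 424 (median 398) CPM in batch 2. Ranitidine at 4000 µM left 165, 154 and 193 CPM in batch 1 and 139.5, 155 and 134 in batch 2, 2.59-fold lower (log2 fold change -1.37 ± 0.074 (SE), adjusted p = 4.18e-40). Acetaminophen at 10000 µM left 118, 164 and 149 CPM in batch 1 and 135, 157 and 155 in batch 2, 2.17-fold lower (adjusted p = 2.56e-32). The falls with diclofenac at 400 µM and caffeine at 10000 µM were 2.19-fold and 1.85-fold (adjusted p = 1.5e-32 and 8.18e-24). None of the wells of these 4 treatments overlapped vehicle. Rises of this gene were small, at most 1.33-fold with WY14643 at 8 µM (adjusted p = 7.99e-08).

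Aldh2, the mitochondrial acetaldehyde dehydrogenase, was called lower with 12 of 14 high concentrations, and the 2 without a call were doxorubicin at 2 µM and simvastatin at 60 µM (0.02 ± 0.12 (SE), adjusted p = 0.942). Vehicle wells held 169, 163 and 147 CPM in batch 1 and between 171 and 249 (median 213) CPM in batch 2. Diclofenac at 400 µM left 52.2, 75.6 and 62.1 CPM in batch 1 and 101, 94.5 and 94.5 in batch 2, 2.59-fold lower (log2 fold change -1.37 ± 0.13 (SE), adjusted p = 5.57e-19). Caffeine at 10000 µM left 50.7, 64.9 and 62.3 CPM in batch 1 and 71.7, 91.7 and 99.8 in batch 2, 2.33-fold lower (adjusted p = 6.06e-16). No well of these treatments reached vehicle in its batch. The other fitted falls stayed under 2-fold relative to the bulk of all genes. On the CPM scale acetaminophen at 10000 µM left 40.6% and 47.8% of the vehicle mean, and its fit with total counts was -1.17 against -0.77. WY14643 at 8 µM left 45.8% in batch 2. The falls with indomethacin, isoniazid, naproxen and sulfasalazine at the high concentration were not called with the wells summed per rat (adjusted p from 0.051 to 0.156). The valproic acid call at 10000 µM (-0.39, adjusted p = 0.00436) came from wells that overlapped vehicle in both batches, and under total-count scaling it was -0.12 (adjusted p = 0.381).

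WY14643 lowered Aldh2 while it raised Aldh1a1, Aldh3a2 and Aldh6a1. At 8 µM the Aldh2 wells held 112, 82.8 and 85.6 CPM in batch 1 and 96.1, 91.6 and 105 in batch 2, and at 200 µM 93.8, 95.9 and 106 in batch 1 and 135, 109 and 105 in batch 2. All 12 wells were below the vehicle wells of their batch, at 1.58-fold (log2 fold change -0.66 ± 0.13 (SE), adjusted p = 3.65e-06) and 1.46-fold (log2 fold change -0.54 ± 0.13 (SE), adjusted p = 0.000116) lower. Both calls held with the wells summed per rat and under total-count scaling, and neither passed in batch 1 alone (-0.39, adjusted p = 0.108, and -0.36, adjusted p = 0.136). Doxorubicin at 2 µM left the gene at 195, 168 and 153 CPM in batch 1 and 230.3, 261 and 244 in batch 2, with 1 well of each batch above vehicle and the others within it (0.15 ± 0.12 (SE), adjusted p = 0.447).

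Aldh1b1, the second mitochondrial acetaldehyde dehydrogenase, was read in few counts, and valproic acid was the treatment that stood out. Its vehicle wells held 9, 6 and 6 counts in batch 1, or 1.09, 1.09 and 1.07 CPM, and between 1.05 and 1.92 (median 1.37) CPM in batch 2. Valproic acid at 10000 µM gave 28, 66 and 33 counts in batch 1 and 42, 36 and 30 in batch 2, or 4.42, 10.2 and 8.23 CPM in batch 1 and 5.61, 4.82 and 4.04 in batch 2. The wells at 400 µM held 4.11, 2.95 and 2.14 CPM in batch 1 and 2.10, 1.98 and 3.05 in batch 2. All 12 wells were above the vehicle wells of their batch, so Aldh1b1 rose with valproic acid where Aldh6a1 and Aldh8a1 fell at the higher concentration. In a fit with no filter on low counts, over 20697 genes, the changes were 1.88 ± 0.30 (SE), adjusted p = 1.44e-08, and 1.03 ± 0.32 (SE), adjusted p = 0.0138. Acetaminophen and caffeine at 10000 µM, diclofenac at 400 µM, naproxen at 2000 µM and ranitidine at 4000 µM left 0 to 4 counts per well, against 6 to 13 in vehicle, and these falls passed the same fit, though a level of so few counts cannot be sized.

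**Figure D4:**
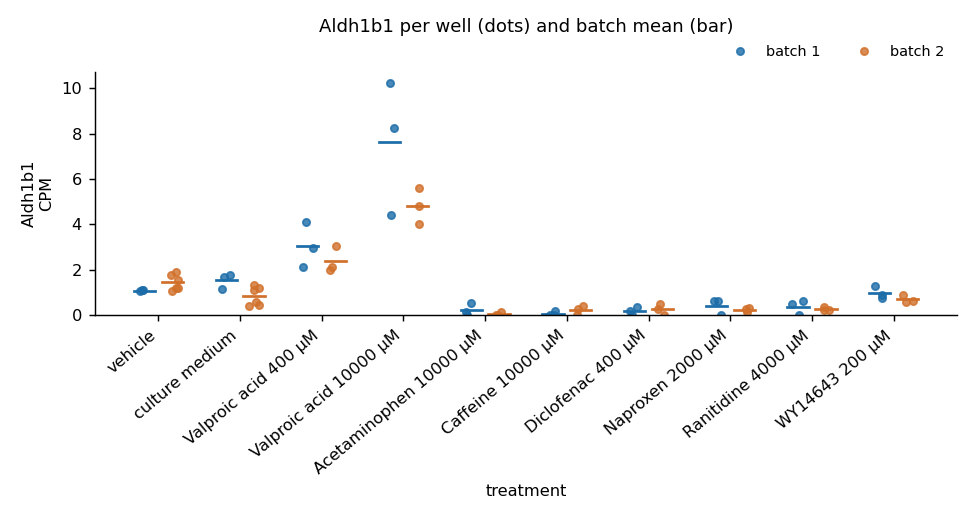
CPM of Aldh1b1 (linear axis from 0) in single wells of vehicle, culture medium and 8 treatments, with batch 1 in blue and batch 2 in orange. Dots are wells and bars batch means. The valproic acid wells at 10000 µM lie between 4.04 and 10.2 CPM and those of vehicle between 1.05 and 1.92 CPM.

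Aldh4a1, the dehydrogenase that completes proline breakdown, was named in the ST assay only. The probe of that name read few counts, 0 to 13 per well in batch 1 (median 3) and 0 to 18 in batch 2 (median 6). Aldh4a1 did not enter the test. The number of its probe, 8025, stands beside the symbol Iffo2 in the WT assay, where that column held 0 to 44 counts per well (median 13). Iffo2 and Aldh4a1 lie next to each other on rat chromosome 5 (Iffo2 at 157114089 to 157160135 and Aldh4a1 at 157163189 to 157188673, GRCr8), so which of the 2 genes the probe reads is not settled by the names, and no level of Aldh4a1 is drawn from it.

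Aldh9a1, the trimethylaminobutyraldehyde dehydrogenase of carnitine synthesis, was called lower with acetaminophen and isoniazid at 10000 µM and higher with 4 of 14 high concentrations. The higher calls, with doxorubicin, indomethacin, sulfasalazine and WY14643, were small (0.25 to 0.36 on the log2 scale), and none of them was called with the wells summed per rat (adjusted p from 0.205 to 0.37). Vehicle wells held 432, 383 and 383 CPM in batch 1 and between 239 and 286 (median 250.5) CPM in batch 2. Acetaminophen left 51.7, 79.9 and 56.2 CPM in batch 1 and 73.3, 80.4 and 52.8 in batch 2, below every vehicle well, 3.52-fold lower (log2 fold change -1.81 ± 0.12 (SE), adjusted p = 4.26e-32). With ranitidine, diclofenac and caffeine, which lowered Aldh7a1 and Aldh2, the change differed between the batches. Caffeine at 10000 µM gave 272, 297 and 318 CPM in batch 1, below vehicle, and 263, 451 and 361 in batch 2, of which 2 wells were above vehicle. The change in batch 2 minus that in batch 1 was 0.80 ± 0.19 (SE) on the log2 scale, adjusted p = 0.00158.

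Across treatments, the lower calls gathered in 7 high concentrations. Acetaminophen, diclofenac, ranitidine, ketoconazole and isoniazid each had 6 of 7 members lower, beside 40.1%, 35.8%, 33.9%, 26.3% and 17.3% of all genes. Caffeine and valproic acid at 10000 µM each had 4 of 7 lower, beside 31.6% and 33.2%. With the wells summed per rat isoniazid kept 4 and diclofenac 5 of these calls, and the other 5 treatments kept theirs. Under total-count scaling valproic acid lost Aldh2, as given above, and Aldh7a1 (-0.34 to -0.07, adjusted p = 0.362). The summed hepatocyte markers had medians of 8110 to 27996 CPM in these 7 treatments against 41755 CPM in vehicle. Naproxen (20129), chloramphenicol (24306) and indomethacin (26560) at the high concentration lay within that range. They were above diclofenac (8110), ranitidine (13313) and valproic acid (17866). These 3 treatments, naproxen, chloramphenicol and indomethacin, had 2, 3 and 1 members lower, beside 26.2%, 17.2% and 27.6% of all genes. The other marker lists also moved in some of the 7 treatments. Caffeine had stellate markers at 17.3 CPM, Kupffer cell and leukocyte markers at 10.4 and endothelial markers at 0.857, and acetaminophen had stellate markers at 19.7. Ranitidine had endothelial markers at 0.537 and diclofenac biliary markers at 9.11. Valproic acid had endothelial markers at 0.709, Kupffer cell and leukocyte markers at 16.2 and, above vehicle, biliary markers at 64.6. The vehicle medians were 50.01 CPM for stellate, 34.9 for Kupffer cell and leukocyte, 2.70 for endothelial and 43.7 for biliary markers. The part of any of these cells in the falls was not tested. The member without a call differed between treatments. With acetaminophen it was Aldh6a1 (-0.47 ± 0.25 (SE), adjusted p = 0.0759), although its 6 wells held 45.6% of the vehicle mean in batch 1 and 60.3% in batch 2, below every vehicle well of their batch, and it was called under total-count scaling (-0.88, adjusted p = 0.0015). It was Aldh9a1 with diclofenac, ranitidine and ketoconazole, and Aldh1a1 with isoniazid (-0.50 ± 0.33 (SE), adjusted p = 0.255). Sulfasalazine at 100 µM had 5 of 7 higher, beside 21.3% of all genes, but 1 of the 5 (Aldh6a1) with the wells summed per rat.

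At low concentrations 7 of 14 chemicals had at least 1 member called, and 15 of the 17 higher calls came with valproic acid, naproxen and WY14643. The summed stellate markers had a median of 89.5 CPM over all low-concentration wells, against 50.01 in vehicle and 53.3 in medium, with treatment medians from 76.6 to 118 CPM. These medians pool the batches in unlike shares, 42 low-concentration wells of each batch against 3 vehicle wells in batch 1 and 6 in batch 2. A rise in stellate markers cannot be read from them, since levels were not compared within a batch. The part of stellate cells in the higher calls was not tested. Valproic acid at 400 µM and naproxen at 80 µM each had 5 of 7 members higher, beside 15.1% and 8.64% of all genes. With the wells summed per rat Aldh1a1 and Aldh3a2 remained with valproic acid and none with naproxen. The 3 lower calls were Aldh2 with WY14643 at 8 µM and sulfasalazine at 4 µM (adjusted p = 3.65e-06 and 0.0342) and Aldh7a1 with simvastatin at 2.4 µM (-0.29, adjusted p = 0.00618), and only the first was also called with the wells summed per rat. For naproxen the Aldh1a1 wells, 159.7, 90.2 and 192 CPM in batch 1 and 121, 50.2 and 269.6 in batch 2, overlapped vehicle in both, and without replicate 3 the change fell from 1.17 to 0.68 and was not called (adjusted p = 0.266). For 7 low concentrations no member was called by edgeR or by DESeq2, and 3 of their 49 pairs had an unadjusted p under 0.05. In those treatments 2 to 165 genes were called in all. Their member changes lay between -0.39 and 0.67.

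Comparing the concentrations of a chemical directly, 59 of 98 member-chemical pairs differed, beside 40.8% of all gene-chemical pairs. With valproic acid the largest differences were those of Aldh8a1 and Aldh6a1. At 400 µM the Aldh8a1 wells held 507, 679 and 552 CPM in batch 1 and 439, 531 and 519.7 in batch 2, above the vehicle wells of each batch, though that rise was not called with the wells summed per rat (adjusted p = 0.133). The wells at 10000 µM held the low levels given above, a difference of -4.03 ± 0.16 (SE) on the log2 scale (adjusted p = 1.58e-55). Aldh6a1 differed by -2.34 ± 0.28 (adjusted p = 1.7e-13) and Aldh1a1 by -1.43 ± 0.36 (adjusted p = 0.000209). Naproxen split the members: Aldh1a1 was higher at 2000 than at 80 µM by 1.24 ± 0.35 (adjusted p = 0.00184), while Aldh2, Aldh6a1, Aldh7a1, Aldh8a1 and Aldh9a1 were lower, Aldh6a1 by 1.11 and Aldh7a1 by 0.86, beside 23.7% of all genes lower. With wells summed per rat the Aldh1a1 difference was not called (adjusted p = 0.0537), nor were those of Aldh8a1 and Aldh9a1 (adjusted p = 0.0815 and 0.116). With simvastatin 4 of 7 members were higher at 60 than at 2.4 µM and none was lower, beside 12% of all genes higher, and of the 4 only Aldh6a1 (1.20, adjusted p = 0.000176) was also called with the wells summed per rat. For WY14643 no member differed between 8 and 200 µM by edgeR or DESeq2, with 1 pair at an unadjusted p under 0.05. The largest member difference there was -0.28, and 585 of 10191 genes were called.

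**Figure D5:**
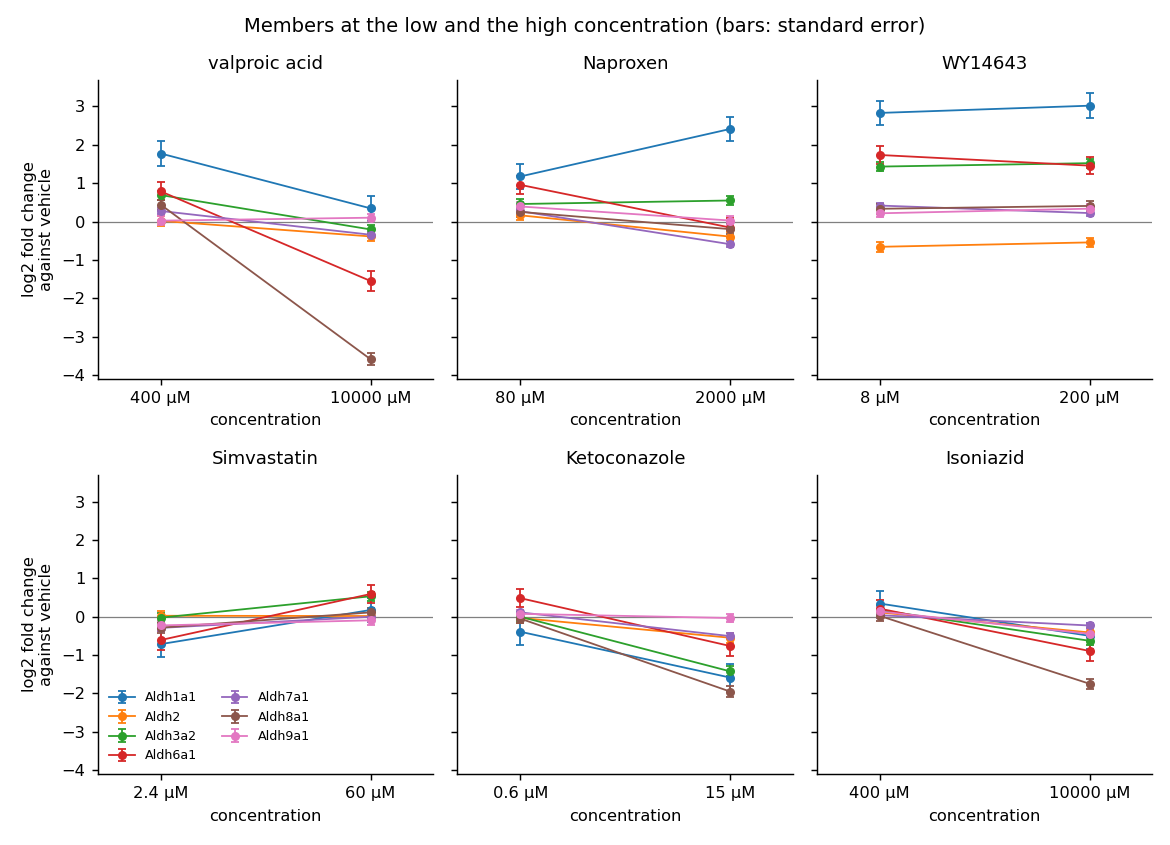
Fitted log2 fold change against vehicle of the 7 tested members at the low and the high concentration of 6 chemicals, one panel each, with bars of 1 standard error. Lines join the 2 concentrations of a member. With valproic acid Aldh8a1 goes from 0.44 to -3.59, and with WY14643 the lines are close to level.

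The ST assay, which read 4 of the tested members in the same lysates with its own libraries, gave the same direction in 104 of 112 member-treatment pairs. It called 53 pairs and the WT assay 55, of which 49 were called by both in the same direction. Among all genes tested in the ST assay 34.8% of pairs were called, and 36.1% of pairs in the WT assay for the genes tested in both. The log2 fold changes of the 2 assays were within 0.48 of each other for every pair, with Aldh1a1 at 2.92 for WY14643 at 200 µM and -4.89 for ranitidine in the ST assay. In culture medium the ST assay called all 4 members lower, Aldh3a2 (-0.49, adjusted p = 0.00225) and Aldh6a1 (-0.70, adjusted p = 0.0159) beside Aldh1a1 and Aldh7a1. Of all 1760 ST genes tested, 9.49% were called lower in medium, while for the 1603 that passed the filter in both assays the WT share was 5.74%. In batch 1 alone the ST assay called only Aldh7a1 of the 4 (adjusted p = 0.00722, and from 0.281 to 0.902 for the other members).

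Of 10 other genes of the family, 6 passed the filter, and over the high concentrations 37 of their 84 pairs were lower and 20 higher, beside 25.5% and 25.4% of all gene-treatment pairs, so the higher count is near that of all genes. Aldh1a2, another retinal dehydrogenase, was higher with 10 of 14 high concentrations and lower with 2, so it held 10 of the 20 higher pairs. Its counts were 4 to 16 per vehicle well and 220 to 464 per well with valproic acid at 10000 µM. It passed the filter in large part through treatments in which it was high, so its higher calls are not free of that selection. Its vehicle wells held 0.893 to 1.94 CPM in batch 1 and 0.691 to 1.48 CPM in batch 2, and with valproic acid at 10000 µM 52.0 to 57.1 CPM and 41.4 to 62.5 CPM. It was thus raised 37.6-fold (adjusted p = 2.23e-41) by a concentration at which Aldh1a1 was not called (0.34 ± 0.32 (SE), adjusted p = 0.349). Aldh3a1, a dehydrogenase of aromatic and medium-chain aldehydes, was lower with 8 and higher with 4. It went from 17.8 to 18.2 CPM in vehicle wells of batch 1 and 6.67 to 17.3 CPM in batch 2 to 0 or 1 count in every well with ranitidine at 4000 µM, the treatment that also lowered Aldh1a1 most. Aldh1l2, a mitochondrial folate enzyme, was lower with 11 of 14 high concentrations and higher with none.

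Around the members, the pathways moved in parts. Among fatty aldehyde and phytol genes, 9 of which were tested, 67 of 126 pairs at high concentrations were higher and 20 lower (median log2 fold change 0.57), where 25.4% of all gene-treatment pairs were higher and 25.5% lower. In it the fatty acid hydroxylases Cyp4a1 and Cyp4a2 were higher with 9 and 10 high concentrations and lower with 1 each, while Phyh, which starts phytanic acid breakdown, was higher with 6 and lower with 7. Of the ethanol and acetate list 22 of 56 pairs were higher and 8 lower (median 0.20), with Cat, the peroxisomal catalase, 14.5-fold higher with WY14643 at 8 µM (adjusted p = 6.03e-73), the treatment that lowered Aldh2. The retinoid list had 54 of 126 pairs lower and 28 higher (median -0.30), with most calls for Dhrs3, Rbp4 and Aox3. Lower and higher pairs numbered 42 and 14 of 84 in tryptophan breakdown, 22 and 10 of 42 in lysine breakdown, 38 and 20 of 84 in proline breakdown, 59 and 39 of 154 in valine breakdown and 26 and 18 of 56 in carnitine synthesis, and the higher share of the lysine, proline and valine lists was close to that of all genes. Among them Tdo2, which opens the kynurenine pathway that Aldh8a1 serves, was lower with 6 and higher with 4 high concentrations, and Bcat2, a branched-chain aminotransferase, lower with 9 and higher with 1. In carnitine synthesis, Slc22a5, the carnitine importer, was higher in 17 treatments and lower in none, while Bbox1, which follows Aldh9a1 in the pathway, was higher in 8 and lower in 9. Of the aldehyde reducing enzymes 37 of 112 pairs were higher and 42 lower (median -0.08). At low concentrations the fatty aldehyde list had 25 higher and 3 lower pairs, the valine list 20 and 7, the retinoid list 16 and 2, and the proline list 12 and 3, beside 4.91% and 4.5% of all gene-treatment pairs. The ethanol list had 9 and 0, the tryptophan list 9 and 3, and the lysine and carnitine lists 7 and 2 each, while the aldehyde reducing enzymes had 6 higher and 8 lower.

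For the 3 members with the widest range of fitted change, the genes with the most similar pattern were sought over the 60 combinations of condition and batch, as Pearson's r of mean log2 CPM centred within batches, a description across conditions that share libraries and vehicle. Aldh8a1 was closest to Hgd (0.97), which acts in tyrosine breakdown, to Palmd (0.96) and to B3galt1 (0.95). Aldh6a1 was closest to Amy1a (0.93), Pxmp2 (0.92) and Masp2 (0.92). Aldh1a1, with the widest range, was closest to Gpd1 (0.88), Ei24 (0.87) and Slc28a2 (0.87). Among the members themselves Aldh1a1 and Aldh3a2 were most alike (0.83), and Aldh2 and Aldh6a1 least (0.23).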

How the data were processed

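Read counts per probe in the 2 tables were deposited by the authors. Per the labels and the study's methods, reads were aligned to rn6 with STAR 2.5.3a, and Tempo-SeqR counted them, with no normalization. Probes of a gene were added, and members matched by symbol. CPM are scaled to the probe counts of a well, and do not allow levels to be compared between genes. All 186 WT wells entered an edgeR (4.0.16) quasi-likelihood fit with TMM factors and batch as a term, over genes that averaged 10 or more counts, with Benjamini-Hochberg adjustment over all genes of a comparison and a threshold of 0.05. The fit was tested on simulated counts. Alternatives included DESeq2 (1.42.0), each batch alone, the wells summed per rat, plate in place of batch and the ST assay. Batch serves as the pairing block, since a batch is 1 rat. Members and gene lists were chosen with earlier results of these data known, and at most 3 genes per list are named, chosen among those called in most treatments, ties by the larger change. The vehicle wells of batch 1 stood on plate 4, so 6 chemicals on plate 5 had none beside them. These were acetaminophen, chloramphenicol, indomethacin, ketoconazole, sulfasalazine and WY14643. With plate as the term, their level against vehicle rests on batch 2. Sequences and positions are RefSeq's (GRCr8), not rn6.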

Additional observations from a re-analysis of the deposited data

Results flagged for a closer look

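One of 26 groups of 6 wells had a well that stood apart by Dixon's criterion, which chance gives in about 1 in 20 groups: the highest of the batch 2 culture medium wells for Aldh1a1 in the ST assay, at 110.1 CPM beside a median of 53.9 CPM. In 8 of 196 member-treatment pairs the change differed between the batches at an adjusted p under 0.05, a test extended to every pair after the data were seen. No pair was called in opposite directions by the batches alone. Aldh9a1 held 4 of the 8, with a change in batch 2 minus that in batch 1 of 0.80 with caffeine at 10000 µM, 0.72 with acetaminophen at 10000 µM, 0.58 with diclofenac at 400 µM and 0.55 with ranitidine at 4000 µM on the log2 scale. Aldh8a1 differed by -0.73 with indomethacin at 300 µM and by -0.66 with ranitidine at 4000 µM, Aldh3a2 by -0.72 with sulfasalazine at 100 µM and Aldh1a1 by -1.79 with diclofenac at 400 µM, where replicate 2 of batch 1 stood apart. With 1 rat per batch, the animal, the plate and the library preparation cannot be told apart.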

How the results depend on the processing

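Beside 46 lower and 20 higher pairs at high concentrations, 3 and 17 at low ones, 2 members in medium and 59 differences between concentrations, the fit with no replicate block gave 43, 17, 1, 14, 2 and 53. Requiring an absolute log2 fold change of at least 1 left 23 and 7, 0 and 6, 1 and 31. With the wells summed per rat, higher pairs fell to 8 at high and 6 at low concentrations, lower pairs at low concentrations to 1 and medium to 0. Batch 1 alone gave 12 and 8 higher pairs, 0 lower at low concentrations and 0 in medium, and batch 2 alone 1 lower pair at low concentrations. The causes were not tested. Leaving out 1 replicate in turn gave 42 to 44 lower and 14 to 19 higher pairs at high concentrations, 1 to 3 and 12 to 14 at low ones, 1 to 2 in medium and 51 to 53 between concentrations. Without replicate 2 the lower pairs at low concentrations came to 1, and without replicate 1 the medium call of Aldh1a1 was lost. The ST assay called 4 of its 4 members in medium, beside 9.49% of its genes, and the WT assay 2 of the same 4, beside 5.74% of the genes tested in both. Size factors by relative log expression and DESeq2 kept all 88 calls of members against vehicle, and plate as the term kept 83. Scaling by total counts, chosen after the data were seen, kept 74 and turned 1, Aldh7a1 with WY14643 at 200 µM, to -0.0133. Genes read in few counts such as Aldh1b1 are near the limit of what these wells resolve, and 2 rats set the limit for animals.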

Other observations

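Aldh1a1 and Aldh6a1 differed between the vehicle wells and the low-concentration wells of batch 2. For Aldh1a1 the 42 low-concentration wells of batch 2 had a median of 79.2 CPM against 48.6 CPM in the 6 vehicle wells, and for Aldh6a1 43.3 against 30.6 CPM. In batch 1 the medians were 100.6 and 117 CPM for Aldh1a1 and 45.7 and 40.5 CPM for Aldh6a1. For Aldh7a1, Aldh8a1 and Aldh2 the medians of low-concentration and vehicle wells were within 7% of each other in both batches. These values were looked at after the fits and were not tested. Aldh3a2 and Aldh2 also differed in vehicle between the plates of batch 2, with Aldh2 at 171 to 202 CPM on plate 2 and 224 to 249 CPM on plate 3.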
